A study of Mus musculus with 194 samples.

Results

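Junb, Jun and Jund, the 3 genes of the Jun family, were followed in mouse brain tissue before and after cocaine together with Atf3, Creb1, Crem and Maff, 4 further basic leucine zipper (bZIP) transcription factors. The 7 genes were picked by name, and no measured value enters the rule, although earlier results of these data were known when it was set. They are 7 of the 19363 genes of the count table. Transcripts were counted from their 3′ ends (3′-RNA-seq) in 5 dissected structures: the dorsal striatum (DS), the nucleus accumbens (NAc), limbic cortex (LCtx, the medial prefrontal and cingulate areas), the lateral hypothalamus (LH) and the amygdala (Amy). The mice were C57BL/6OLAHSD males, 6 to 7 weeks old on arrival. The study describes 3 daily saline injections for habituation before cocaine, and does not say outright whether the naive 0 hr mice had them. In the acute groups, mice had 1 dose of cocaine (20 mg/kg, i.p.), and the 0 hr mice were naive to cocaine. In the repeated groups, labelled Chronic, mice had 5 daily doses, and the 0 hr mice were taken 24 hr after dose 4. In the challenge groups, mice had 1 further dose after repeated cocaine and 21 days of abstinence, and the 0 hr mice were abstinent. Tissue was taken at 0, 1, 2 and 4 hr. The 0 hr mice were taken from the home cage and had no injection on the day of dissection. Effects of cocaine, of the injection itself and of the recording of locomotion after it therefore cannot be told apart.

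The Jun proteins bind DNA as the AP-1 complex, in pairs with each other or with a Fos protein. In neurons the genes for several AP-1 subunits are immediate early genes: synaptic activity and dopamine receptor signalling raise their transcription within minutes through transcription factors that are already in the cell, and the transcripts are short-lived. Creb1 encodes one of these resident factors, which binds the cAMP response element and is switched on by phosphorylation rather than by new synthesis. Crem encodes close relatives of CREB, among them ICER, a short repressor made from an internal promoter that cAMP itself turns on. Atf3 is a stress-responsive and activity-responsive relative that can pair with Jun proteins, and Maff is a small Maf protein that lacks a transactivation domain.

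The promoters of Junb, Jun and Atf3 are shown because these were the members with a change called after cocaine, and because cAMP response elements and AP-1 sites are the letters read by the proteins that the 7 genes encode. Each window holds the 250 bases before the start of the RefSeq gene on its own strand, in the build GRCm38.p6. Capitals mark a match to TGACG, the core of the cAMP response element, to TGACNTCA, its longer form, or to TGANTCA, the AP-1 site. Both strands were searched, and a TGACGTCA counts for the first motif on each strand and for the second.

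Junb, chr8:84978749-84978998, minus strand: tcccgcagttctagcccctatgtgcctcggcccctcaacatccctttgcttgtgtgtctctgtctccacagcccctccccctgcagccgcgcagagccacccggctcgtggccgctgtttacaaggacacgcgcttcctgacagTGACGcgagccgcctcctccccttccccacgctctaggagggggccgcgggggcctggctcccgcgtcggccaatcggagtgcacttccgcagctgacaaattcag
Jun, chr4:95052223-95052472, minus strand: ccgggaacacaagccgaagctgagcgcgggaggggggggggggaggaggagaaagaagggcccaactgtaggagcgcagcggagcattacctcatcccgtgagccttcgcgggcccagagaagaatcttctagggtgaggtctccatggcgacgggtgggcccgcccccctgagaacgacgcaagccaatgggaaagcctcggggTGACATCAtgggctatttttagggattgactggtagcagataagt
Atf3, chr1:191183334-191183583, minus strand: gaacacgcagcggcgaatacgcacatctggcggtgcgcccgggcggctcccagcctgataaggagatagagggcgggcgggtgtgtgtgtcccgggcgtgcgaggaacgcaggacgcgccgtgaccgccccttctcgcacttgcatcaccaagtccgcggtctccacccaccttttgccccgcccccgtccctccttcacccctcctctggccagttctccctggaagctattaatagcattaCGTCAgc

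The Junb window held 1 match to TGACG, which began 106 bases before the start. The Jun window held 1 match to TGACNTCA, 45 bases before the start, and the Atf3 window held TGACG on the other strand, 7 bases before the start. Of 32851 RefSeq windows of the same length, 17.8% held TGACG, 7.49% held TGACNTCA and 6.75% held TGANTCA. Windows were found for 6 of the 7 genes, 8 windows in all with 3 for Maff. A Maff window that starts at chr15:79347270 held the whole TGACGTCA, 29 bases before the start, whereas the windows of Creb1 and Jund held no match to these letters.

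In GRCm38 with the GENCODE annotation, Jun lies at chr4:95049034-95052222 on the minus strand, Junb at chr8:84974484-84978718 on the minus strand and Jund at chr8:70698949-70700616 on the plus strand. Atf3 lies at chr1:191170296-191218039 on the minus strand, Creb1 at chr1:64532645-64604548 on the plus strand and Maff at chr15:79346621-79359076 on the plus strand. The last 351 bases of Junb overlap the end of Prdx2, a peroxiredoxin gene on the other strand, and the strand setting of the counting is not given in the sources used here, so reads in the overlap cannot be assigned with certainty. Prdx2 stood at 337 to 565 CPM (counts per library, scaled to a common library total) in the 0 hr mice of the DS and at 331 to 504 in the 1 hr mice, with medians of 421 and 425. Jun and Jund overlap antisense genes, Junos and Gm11175, that are not among the rows of the count table. Crem reads at a shared 3′ end do not separate CREM from ICER.

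In all, 166 samples of 1 structure of 1 mouse were measured from 48 mice in 194 libraries, and 28 samples were sequenced in a pair of runs. Total counts per library ranged from 1193306 to 10367769 with a median of 3296647.5. Summed markers of striatal projection neurons lay between 10739 and 13626 CPM in DS samples, between 6071 and 9569 in NAc samples and at or below 1845 elsewhere, and summed markers of the LH were 9333 to 16142 in the LH and at most 1643 elsewhere. Markers of glutamatergic neurons summed to 1057 to 1952 CPM in the LCtx and 588 to 1446 CPM in the Amy, ranges that overlap, and to at most 640.02 CPM in the other structures. The library of naive DS replicate 1 stood apart: its summed choroid plexus and ependyma markers were 252 CPM against 54.2 to 75.6 in the other 3 naive DS mice, and at least 1 acute DS change of each gene tested there is also given without it. In the LCtx, 3 acute libraries had high summed blood markers, 13260 and 9905 CPM at 0 hr and 9914 CPM at 2 hr. In the LCtx and NAc, the acute and the repeated groups each came from a run of their own, whereas in the Amy and LH they shared a run. The challenge groups of these 4 structures came from another pair of runs. In the DS, the acute groups came from 1 run and the repeated and challenge groups from another, and a further run held 2 mice per time of all 3 experiences, and it is called the shared run here.

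Junb rose in every structure. A change was called where the adjusted p of edgeR's quasi-likelihood test was under 0.05 and the fold was over 1.2, with Benjamini-Hochberg adjustment over all genes tested in a contrast. Values per mouse are CPM, and changes are log2 fold changes with their standard error (SE). By this rule Junb was called in 14 of 15 combinations of structure and experience at 1 hr, and every 1 hr mouse lay above every 0 hr mouse of its group in 15 of 15. In these contrasts 0.00755% to 1.05% of all genes were called, and the share of all genes whose 1 hr mice all lay above the 0 hr mice ran from 1.65% in the repeated groups of the DS, with 4 against 4 mice, to 35.3% in the challenge groups of the LH, with 2 against 1. Over all 7 genes, 17 of 90 tests at 1 hr were called, all of them increases, against 2 of 90 at 2 hr and 0 of 90 at 4 hr. At 4 hr, 13 of the 90 tests had an unadjusted p under 0.05. In the test over all 3 times together, 18 of 90 were called, 14 for Junb, 2 for Jun and 2 for Atf3.

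Beside these counts, the share of all genes called at 2 hr was 1.07%, 0.0852% and 0.224% in the acute, repeated and challenge groups of the DS (0.155% in the acute groups without naive replicate 1), 0.0231% in the NAc after challenge, 0.00755% and 0.0151% in the LH after acute and repeated cocaine, and 0% in the LCtx. At 4 hr it was 0.921% (0.0697% without naive replicate 1), 0% and 0.0155% in the DS, 0.0386% and 0.00771% in the NAc after acute and repeated cocaine, 0.0149% in the LCtx after repeated cocaine, 0.00776% in the Amy after challenge and 0.00755% in the LH after acute cocaine. Over the 3 times together, in the order acute, repeated and challenge, it was 2.62%, 0.480% and 0.673% for the DS, 0.297%, 0.0967% and 0.0744% for the LCtx, 0.185%, 0.0463% and 0.0925% for the NAc, 0.0853%, 0.0233% and 0.109% for the Amy, and 0.0529%, 0.0302% and 0.00755% for the LH.

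The rise of Junb was largest in the DS. In the acute groups of the DS, Junb stood at 161, 289, 186 and 174 CPM at 0 hr, at 823, 857, 830.3 and 1097 CPM at 1 hr, at 117, 189.9, 139.7 and 192 CPM at 2 hr and at 135, 172, 115 and 130.2 CPM at 4 hr. In the repeated groups it stood at 124, 149, 119 and 171 CPM at 0 hr, at 603, 596, 749 and 834 CPM at 1 hr, at 129.6, 215, 215, 185 and 139 CPM at 2 hr and at 161, 117, 113 and 157 CPM at 4 hr. In the challenge groups it stood at 194, 270.0 and 182 CPM at 0 hr, at 892, 1271, 882 and 782 CPM at 1 hr, at 247, 236, 284 and 257 CPM at 2 hr and at 214, 154, 239 and 156 CPM at 4 hr. The lowest of the 12 mice at 1 hr stood at 596 CPM and the highest of all other DS mice at 289 CPM, so that the groups were far apart at 1 hr and no longer at 2 hr.

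The log2 change of Junb in the DS at 1 hr was 2.21 (SE 0.17, adjusted p = 3.59e-15) after acute cocaine, 2.30 (SE 0.17, adjusted p = 3.1e-15) after repeated cocaine and 2.16 (SE 0.19, adjusted p = 8.02e-13) after challenge, folds of 4.64, 4.91 and 4.48. Of all genes tested in these contrasts, 1.05%, 0.263% and 0.348% were called. Without naive replicate 1, the acute change was 2.11, and 66 genes were called in place of 135. In the shared run alone the 3 changes were 2.39, 2.23 and 2.20. At 4 hr after acute cocaine Junb was at -0.54 (SE 0.17, adjusted p = 0.138), a value below 0 hr that did not pass the test, and that was called without the filter on low counts (-0.52, adjusted p = 0.00492). Samples are bulk tissue, in which a change in the number of cells that express a gene and a change in RNA per cell cannot be told apart.

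**Figure D1:**
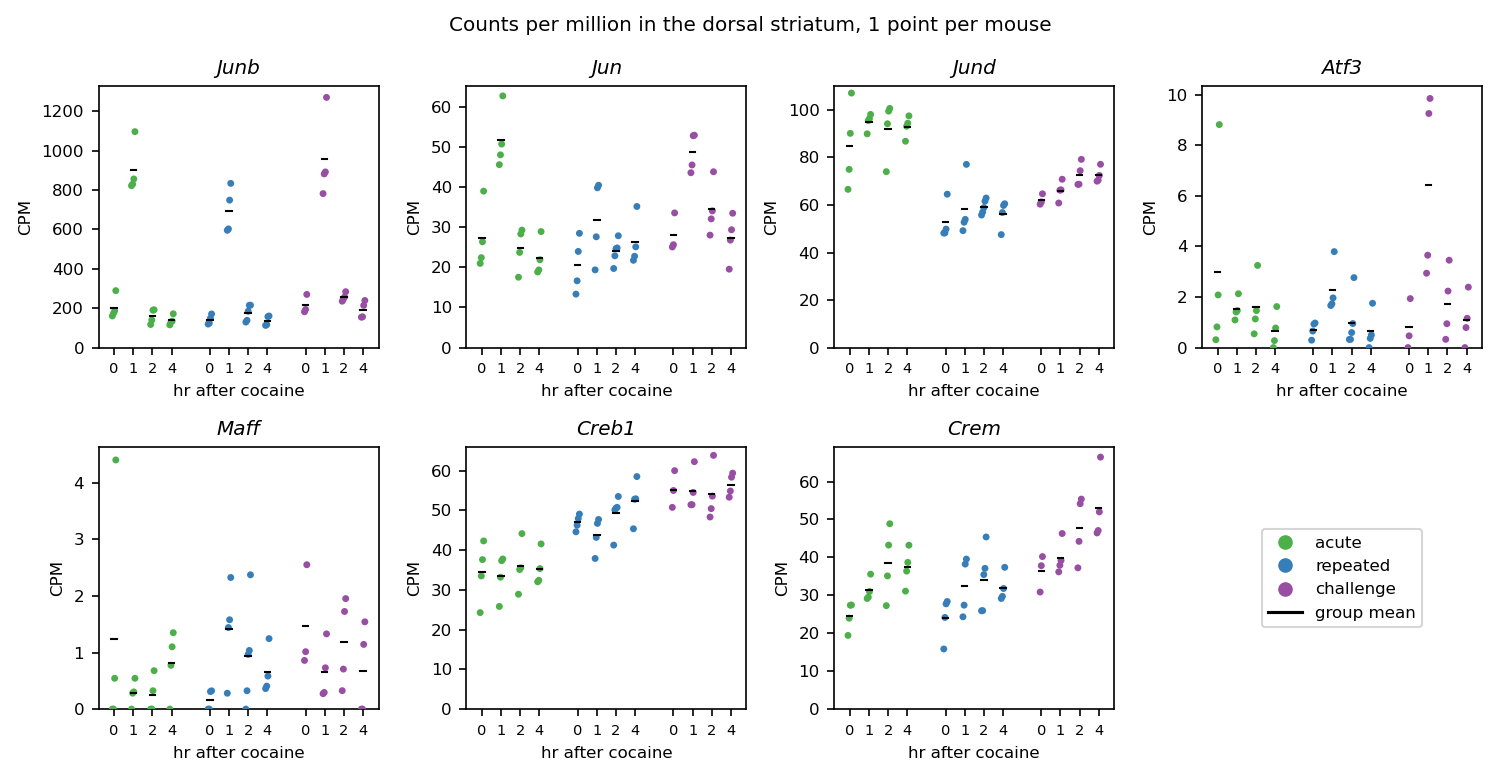
CPM of the 7 genes in the dorsal striatum, 1 point per mouse, by hr after cocaine (x axis) in the acute, repeated and challenge groups; black bars are group means. Junb and Jun are highest at 1 hr, whereas Jund and Creb1 differ more between the acute and the other experiences, which came from different runs, than between times.

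Outside the DS, Junb rose less. In the LCtx it stood at 242, 203 and 173 CPM before and 416 and 409 CPM 1 hr after acute cocaine, at 157 and 181 CPM before and 397 and 439 CPM after the last repeated dose, and at 191 and 186 CPM before and 469, 341, 459.7 and 414 CPM after the challenge. The changes were 0.98 (SE 0.15, adjusted p = 0.000197), 1.29 (SE 0.17, adjusted p = 2.37e-05) and 1.17 (SE 0.15, adjusted p = 2.6e-05), in contrasts where 0.342%, 0.0521% and 0.0297% of all genes were called. Of the 7 genes, Junb was the only one called in the LCtx. In the acute LCtx contrast 3 of 8 striatal projection neuron markers (Drd2, Penk and Tac1) and 2 choroid plexus and ependyma markers were called too; the blood markers above were high in 0 hr replicates 2 and 3. Their part in the Junb value was not tested.

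In the NAc, the CPM of Junb went from 142, 181, 167 and 135 to 240.1, 295, 267 and 370.2 at 1 hr of acute cocaine, from 147 and 133 to 303 and 325 in the repeated groups and from 164 and 183 to 302, 236, 249 and 301 in the challenge groups. These were changes of 0.90 (SE 0.12, adjusted p = 2.97e-06), 1.17 (SE 0.16, adjusted p = 8.61e-05) and 0.70 (SE 0.14, adjusted p = 0.0262), with 0.1%, 0.0617% and 0.0617% of all genes called. The challenge value was the smallest of the 3 and the least firm: it was not called with the replicate number as a block (adjusted p = 0.1001), nor without replicate 1 of the 0 hr mice or replicate 4 of the 1 hr mice.

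In the Amy, Junb stood at 129 and 105 CPM before and 248 and 259.6 CPM 1 hr after acute cocaine. The repeated groups were at 93.4 and 108 CPM before and 220.0 and 210.1 CPM after the dose, and the challenge groups at 130.0, 109 and 117 CPM before and 258, 204, 249 and 257 CPM after it. Every 1 hr mouse was above the 0 hr mice of its experience, as was so for 16.6%, 17.5% and 2.48% of all genes. The 1 hr changes were 1.12 (SE 0.15, adjusted p = 3.53e-05), 1.10 (SE 0.16, adjusted p = 0.000101) and 1.03 (SE 0.12, adjusted p = 2.89e-07), where 0.0155%, 0.0233% and 0.0931% of all genes were called. The acute call was lost without replicate 2 of the 0 hr mice.

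The Amy was also where Junb was still called at 2 hr. After challenge it stood at 209.7, 202, 202 and 194 CPM at 2 hr, above all 3 abstinent mice, as was so for 3.85% of all genes. The change was 0.76 (SE 0.12, adjusted p = 0.000877), with 0.0543% of all genes called. After repeated cocaine the 2 hr mice were at 205 and 143 CPM, a change of 0.78 (SE 0.16, adjusted p = 0.0468), with 0.0233% of all genes called. This call is fragile, since it held in only 10 of 31 refits that left out 1 mouse and was lost with RLE scaling and with summed libraries. After acute cocaine the 2 hr mice stood at 149 and 136 CPM and the change was 0.26 (SE 0.15, adjusted p = 1).

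In the LH, the structure with the lowest Junb level, Junb went from 41.8 and 40.9 to 66.5 and 73.8 CPM after acute cocaine and from 39.1 and 31.2 to 79.2 and 63.0 CPM after repeated cocaine. Both changes were called, 0.77 (SE 0.16, adjusted p = 0.0414) and 0.97 (SE 0.16, adjusted p = 0.0102), with 0.0680% and 0.0302% of all genes called. The acute call was lost with DESeq2 and in 6 of 22 refits that left out 1 mouse, and the repeated call without replicate 2 at 0 hr or replicate 1 at 1 hr. After challenge, the lone abstinent mouse was at 43.9 CPM and the 1 hr mice were at 75.5 and 68.3 CPM. That change, 0.68 (SE 0.17, adjusted p = 0.424), was not called, in a contrast where 0.00755% of all genes were.

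**Figure D2:**
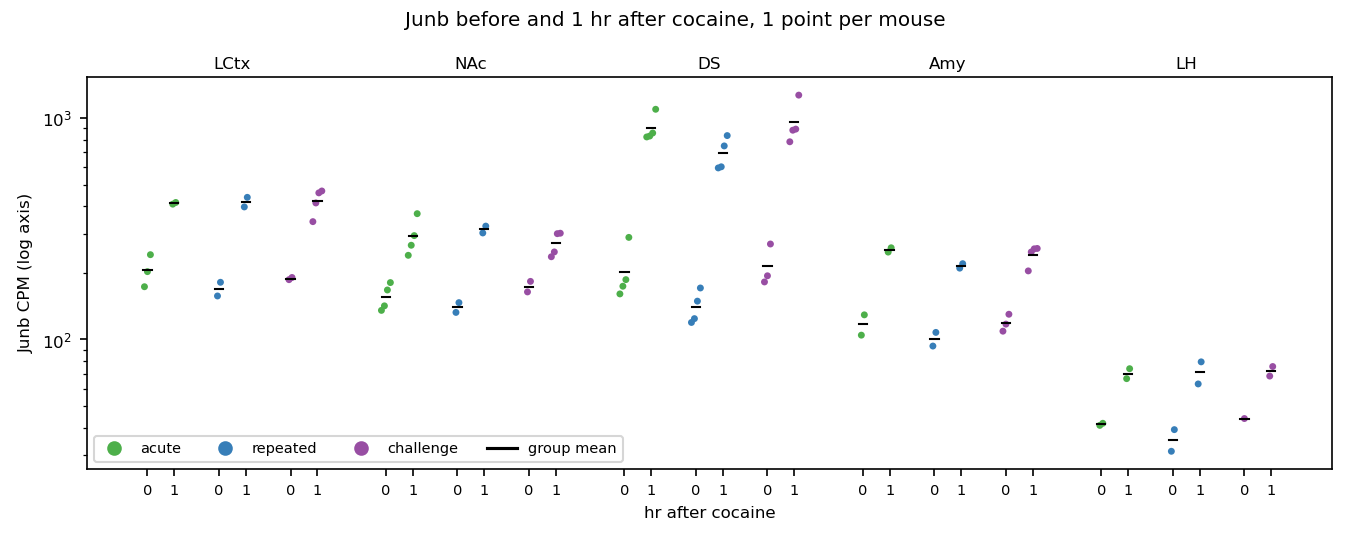
Junb CPM (log axis) at 0 and 1 hr in the 5 structures, 1 point per mouse, coloured by experience, with bars at the group means. The 1 hr mice lie above the 0 hr mice in all 15 pairs of groups, and the step is widest in the dorsal striatum.

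Jun, the founding member of the family, was called in the DS and in no other structure. Before acute cocaine the DS held 39.0, 26.4, 22.4 and 20.97 CPM of Jun and 1 hr later 45.6, 50.7, 62.7 and 48.0 CPM. In the repeated groups Jun was at 13.3, 16.6, 28.5 and 23.95 CPM at 0 hr and 19.4, 27.6, 39.8 and 40.5 CPM at 1 hr, and in the challenge groups at 33.6, 25.6 and 25.1 CPM at 0 hr and 52.9, 52.8, 45.5 and 43.6 CPM at 1 hr. Every 1 hr mouse was above every 0 hr mouse after acute cocaine and challenge, as was so for 2.32% and 3.5% of all genes. The groups did overlap after repeated cocaine, where replicates 1 and 2 came from another cohort than replicates 3 and 4. Within each of these cohorts both 1 hr mice were above both 0 hr mice. The share of all genes within a cohort is not given here. With 2 against 2 mice in the Amy, 16.6% of all genes had this order 1 hr after acute cocaine.

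The changes of Jun in the DS at 1 hr were 0.97 (SE 0.19, adjusted p = 0.00101), 0.62 (SE 0.20, adjusted p = 0.454) and 0.80 (SE 0.19, adjusted p = 0.0412), of which the acute and the challenge value were called. Naive replicate 1 had the highest Jun of the 4 naive mice, and without it the acute change was 1.21 (SE 0.20, adjusted p = 6.93e-05). With only the 2 mice per time of the shared run, the acute change was 1.24 (adjusted p = 0.0907) and the challenge change 0.57 (adjusted p = 0.639). The challenge call was also lost with summed libraries and in 5 of 48 refits that left out 1 mouse. Jun was back near its 0 hr level at 2 hr, where the changes were -0.14, 0.23 and 0.32.

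In the other structures, no change of Jun was called at any time. At 1 hr, 13 of the 15 changes of Jun were above 0 and 8 had an unadjusted p under 0.05. The Amy values were 0.41, 0.25 and 0.40, where the 4 challenge mice at 1 hr held 84.0, 65.3, 85.7 and 85.2 CPM against 67.5, 56.2 and 59.4 CPM in abstinent mice. In the LH they were -0.11, 0.03 and -0.11, with every group of mice overlapping its 0 hr group.

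Jund, the Jun gene that most cells express at rest, had no called change in 45 tests with edgeR, of which 4 had an unadjusted p under 0.05, nor in the 43 to which DESeq2 gave an adjusted p. Its changes ran from -0.34, in the LH 1 hr after repeated cocaine, to 0.26, in the LCtx 2 hr after repeated cocaine. In the DS, the naive mice were at 107, 66.6, 75.0 and 90.2 CPM and the acute 1 hr mice at 95.5, 90.0, 98.1 and 96.4 CPM, a change of 0.18 (SE 0.10, adjusted p = 0.694), and of 0.29 (SE 0.11, adjusted p = 0.596) without naive replicate 1. The repeated and challenge mice of the DS stood lower at 0 hr, the repeated mice at 49.9, 48.3, 48.2 and 64.6 CPM and the abstinent mice at 61.3, 64.7 and 60.3 CPM, but these libraries came from another run than the acute ones. Within the shared run, the 0 hr differences from naive mice were 0.14 (SE 0.19) in repeated and 0.17 (SE 0.20) in abstinent mice, with neither called. When mice of all time points were compared, Jund was called in abstinent mice of 4 structures, with values that are given beside those of Crem.

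**Figure D3:**
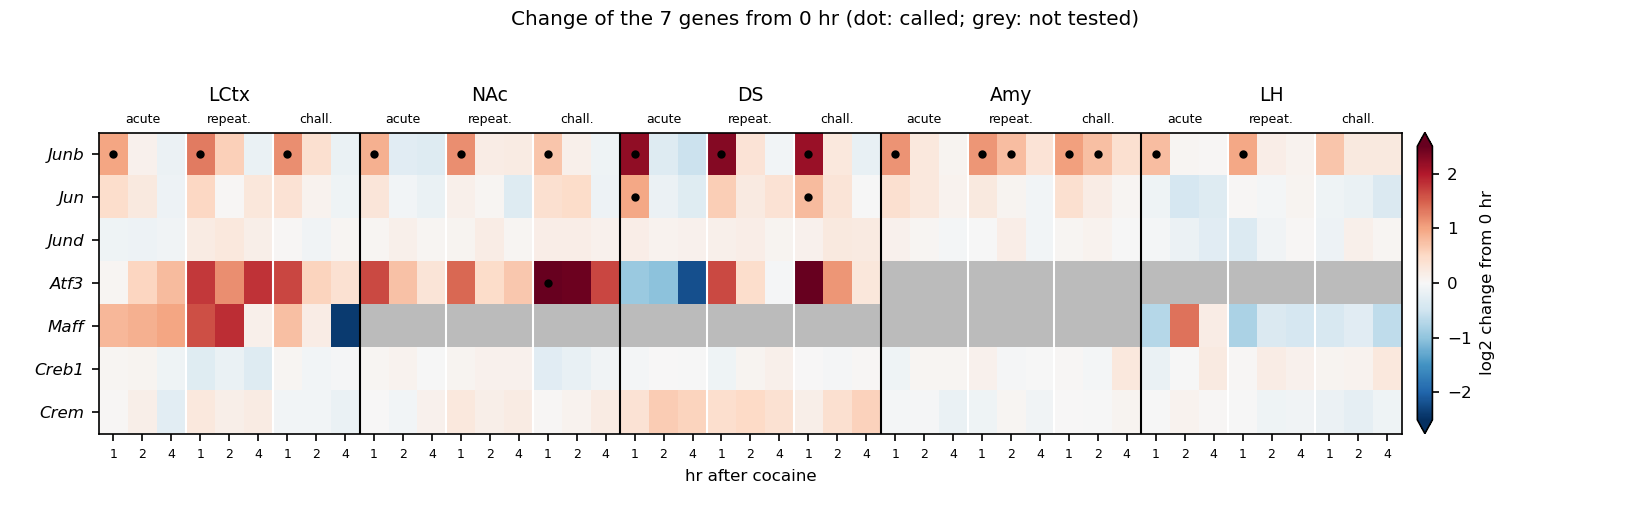
Log2 change from 0 hr of the 7 genes (rows) at 1, 2 and 4 hr (columns) in each experience and structure, on a colour scale that is cut at 2.5 in either direction; black dots mark called changes and grey cells were not tested because counts were too low. The dots run along the 1 hr columns of Junb, with 2 more for Jun in the dorsal striatum, 1 for Atf3 in the nucleus accumbens after challenge and 2 for Junb at 2 hr in the amygdala.

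Atf3 counts were few, 3 or less (but not 0) in 68 of 166 samples and 0 in 16, and the gene passed the filter on low counts in the LCtx, NAc and DS. Within these limits it showed the largest called fold of the 7 genes, in the NAc after challenge. The abstinent NAc mice held 0.352 and 0.846 CPM of Atf3, the 1 hr mice 10.9, 12.1, 7.76 and 9.92 CPM, the 2 hr mice 1.42, 2.83, 5.26 and 2.49 CPM and the 4 hr mice 2.57, 2.64, 0.468 and 0.949 CPM. All 4 mice at 1 hr lay above every other NAc mouse of the challenge groups. For 5.48% of all genes the 1 hr mice all lay above both abstinent mice. The share against all other times is not given here. The log2 change at 1 hr was 4.16 (SE 0.67, adjusted p = 0.000742).

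In summed counts this was 5 of 9222058 at 0 hr against 111 of 11098765 at 1 hr, a ratio of 18.4 (95% exact binomial interval 7.67 to 57.9, which covers counting error only). The 2 abstinent mice were both sequenced in 1 of the 2 runs that held the 1 hr mice, and with run as a covariate the change was 4.33 (adjusted p = 0.000513). Without replicate 1 of the abstinent mice the call was lost (adjusted p = 0.352). DESeq2 put the change at 4.25 and gave no adjusted p.

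In the NAc after acute cocaine, Atf3 went from 1.06, 1.201, 1.16 and 0.590 to 2.53, 1.21, 3.83 and 5.39 CPM, a ratio of summed counts of 3.24 (1.71 to 6.55). After repeated cocaine it went from 0.303 and 1.27 to 1.51 and 2.78 CPM, a ratio of 2.804 (0.969 to 9.86). Every 1 hr mouse was above every 0 hr mouse in both, as was so for 1.74% and 15.4% of all genes, and the changes of 1.65 (SE 0.55, adjusted p = 0.999) and 1.43 (SE 0.87, adjusted p = 0.999) did not pass the test. Over the 3 times together, the acute change was called only with the study's selection in 2 steps (adjusted p = 0.0157), in which genes with a time effect in at least 1 experience are kept (22 in the NAc, of which 19 were called after acute cocaine) and every experience is then fitted alone. The difference between challenge and acute changes in the NAc was 2.51 (SE 0.96, adjusted p = 0.502), which did not pass the test.

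In the DS, the abstinent mice held 1.94, 0 and 0.464 CPM of Atf3 and the 1 hr challenge mice 2.94, 9.25, 9.84 and 3.65 CPM, a ratio of summed counts of 7.53 (4.03 to 15.6). Its change of 2.898 (SE 0.74, adjusted p = 0.0616) was just outside the threshold, and the test over all 3 times was called (adjusted p = 0.0146) where 0.673% of all genes were. That call was lost with DESeq2 (adjusted p = 0.134) and without replicate 2 or 3 of the 1 hr mice, while the 1 hr change itself was called in 4 alternative fits, among them with the replicate number as a block (adjusted p = 0.0472). In the repeated groups Atf3 went from 0.929, 0.652, 0.970 and 0.292 to 1.96, 1.66, 1.73 and 3.79 CPM, a ratio of 3.23 (1.497 to 7.74) that did not pass the test.

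In the acute groups of the DS no rise of Atf3 was called. Naive mice held 8.81, 2.08, 0.311 and 0.817 CPM of Atf3, with replicate 1 far above the rest, and 1 hr mice held 1.46, 1.09, 1.41 and 2.13 CPM. The change was -0.93 (SE 0.71, adjusted p = 0.824), and 0.80 (SE 0.89) without replicate 1. Where the same mice were sequenced again in the shared run, 2 naive mice, replicates 3 and 4, had no Atf3 count and the 2 mice at 1 hr had 3.34 and 2.11 CPM. The challenge change exceeded the acute change in the DS by 3.83 (SE 1.03, adjusted p = 0.329), and by 2.09 (SE 1.22, adjusted p = 0.999) without naive replicate 1. Neither was called, but without the filter on low counts the first was (3.82, adjusted p = 0.0241).

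Maff was at the edge of detection, with 1 to 3 counts in 73 of 166 samples and none in 22, and it passed the filter in the LCtx and LH only. No Maff change was called in 18 tests with edgeR, of which 1 had an unadjusted p under 0.05, or with DESeq2. In the LCtx, the repeated mice went from 0.704 and 0.551 to 1.46 and 2.39 CPM at 1 hr, a change of 1.61 (SE 1.06, adjusted p = 1). In the challenge groups of the LCtx, Maff stood at 3.15 and 0.423 CPM at 0 hr and 2.12, 3.74, 1.75 and 5.93 CPM at 1 hr, a change of 0.75 (SE 0.79, adjusted p = 1). The counts were few, and what size of change could have been detected in Maff was not tested.

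Creb1 had no called change. None of 45 changes from 0 hr was called with edgeR, 1 had an unadjusted p under 0.05, and DESeq2 called none of the 41 to which it gave an adjusted p. The changes ran from -0.33 to 0.26. In the DS at 1 hr, the acute mice were at 37.8, 37.3, 33.2 and 25.8 CPM against 37.6, 24.3, 42.3 and 33.5 CPM in naive mice, with a change of -0.04 (SE 0.13, adjusted p = 0.969). The 95% interval of that change was -0.30 to 0.22, and without naive replicate 1 the change was -0.02 (SE 0.14). As with Jund, the 0 hr means of the DS differed between runs, and in the shared run Creb1 was at -0.39 (adjusted p = 0.556) in repeated and -0.25 (adjusted p = 0.720) in abstinent mice relative to naive mice.

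Crem had no called change in 45 tests with edgeR, of which 7 had an unadjusted p under 0.05, or with DESeq2. Some alternative fits called it in the DS, as given after its values. In the DS its fitted changes were nevertheless above 0 at each time. In the acute groups it stood at 27.5, 19.4, 27.4 and 23.97 CPM at 0 hr, 35.6, 29.2, 29.5 and 31.0 CPM at 1 hr, 27.3, 48.9, 35.1 and 43.2 CPM at 2 hr and 31.1, 36.4, 43.2 and 38.7 CPM at 4 hr. In the challenge groups the values were 40.2, 37.8 and 30.9, then 37.9, 36.2, 46.3 and 39.2, then 55.4, 44.2, 54.2 and 37.2 and at 4 hr 46.5, 66.5, 47.1 and 52.0 CPM. In the repeated groups they were 24.2, 28.4, 15.9 and 27.8, then 39.6, 38.2, 27.4 and 24.3, then 25.9, 35.5, 45.4, 37.1 and 26.0 and at 4 hr 29.7, 37.4, 29.2 and 31.8 CPM. At 4 hr every mouse of each experience was above its 0 hr group, as was so for 4.03%, 1.36% and 2.73% of all genes in the acute, repeated and challenge groups.

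All 9 changes of Crem in the DS were above 0, between 0.15 and 0.63, and those of 1 experience share their 0 hr mice. The largest was at 2 hr of acute cocaine, 0.63 (SE 0.18, adjusted p = 0.0603), and at 4 hr the changes were 0.56 (SE 0.18, adjusted p = 0.129), 0.38 (SE 0.19, adjusted p = 0.998) and 0.57 (SE 0.17, adjusted p = 0.582). Without naive replicate 1, the acute changes were 0.66 at 2 hr (adjusted p = 0.191) and 0.60 at 4 hr (adjusted p = 0.376). With cohort as a covariate the acute 2 hr change was called (adjusted p = 0.0258), and without the filter on low counts those at 2 hr (adjusted p = 0.0079) and 4 hr (adjusted p = 0.0271) were. Over the 3 times together, Crem in the acute groups was called with cohort as a covariate (adjusted p = 0.0429), without the filter (adjusted p = 0.0144) and with the selection in 2 steps (adjusted p = 0.0129), and in the challenge groups with the selection in 2 steps (adjusted p = 0.0217). That selection left 265 genes in the DS, of which 215 were called after acute cocaine and 150 after challenge. In the shared run, however, the acute changes were 0.07 at 2 hr and 0.09 at 4 hr, while the challenge changes were 0.73 and 0.58. Outside the DS, the 36 changes of Crem ran from -0.26 to 0.27, with none called.

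At 0 hr the fitted Crem level of abstinent mice was above that of naive mice in each structure. The Amy difference was 0.55 (adjusted p = 0.0989), the LCtx difference 0.45 (adjusted p = 0.253), the NAc difference 0.29 (adjusted p = 0.565) and the DS difference 0.20 (adjusted p = 0.851), and the lone abstinent LH mouse was at 0.65. None was called at 0 hr, and the DS value was -0.55 with the replicate number as a block. When mice of all time points were compared with time as a covariate, the same difference was 0.61 in the Amy (adjusted p = 5.33e-06), 0.55 in the DS (adjusted p = 0.00986), 0.50 in the LH (adjusted p = 0.000267) and in the LCtx (adjusted p = 0.000863), and 0.40 in the NAc (adjusted p = 0.0361), each of them called in comparisons where 13.2% (Amy), 16.5% (DS), 14.8% (LH), 14.9% (LCtx) and 18.2% (NAc) of all genes were. The same comparison called Jund at -0.48 in the LH (adjusted p = 5.33e-06), -0.29 in the Amy (adjusted p = 0.000555), -0.28 in the NAc (adjusted p = 0.000856) and 0.26 in the DS (adjusted p = 0.0476), and Junb at 0.39 in the DS (adjusted p = 9.79e-05) and 0.27 in the NAc (adjusted p = 0.0271). The DS libraries of that comparison came from 1 run, whereas elsewhere the experience and the run cannot be told apart, and with later times included the difference is one between cocaine experiences rather than between resting states.

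**Figure D4:**
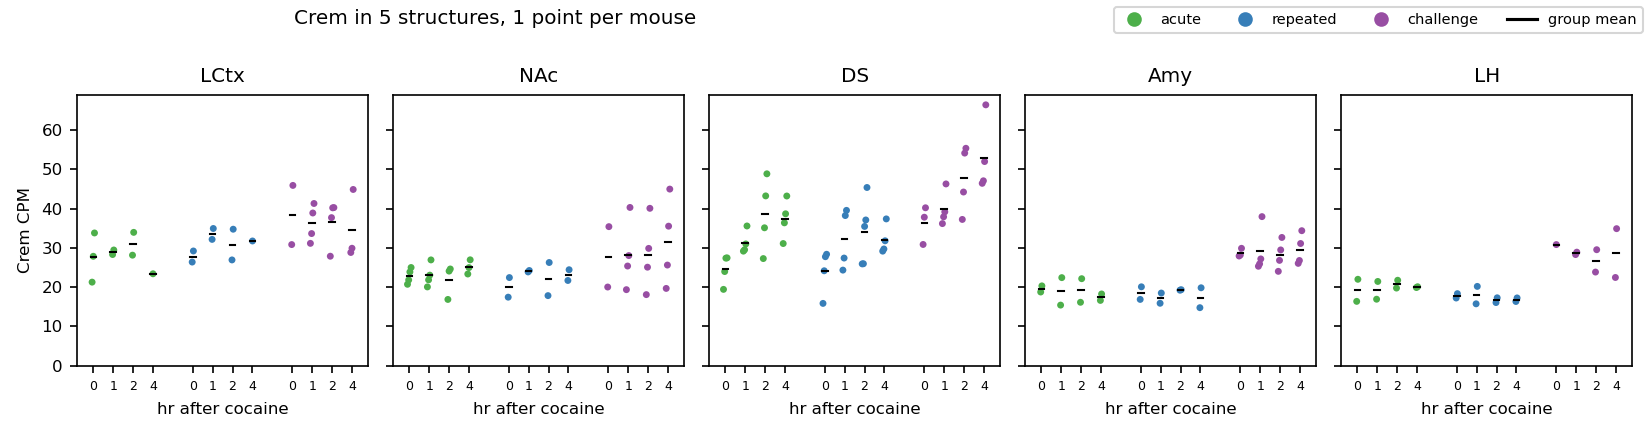
Crem CPM in the 5 structures, 1 point per mouse, by hr after cocaine in the acute, repeated and challenge groups; bars are group means. In the dorsal striatum the 4 hr points lie above the 0 hr points of the same experience, but no change passed the test. Differences in change between structures were tested at 1 hr only, where none was called for Crem, and were not tested at 4 hr.

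Between experiences, no difference in induction was called for any of the 7 genes: 0 of 270 tests with edgeR, of which 16 had an unadjusted p under 0.05, and 0 with DESeq2. Of all genes, 0% to 0.0149% were called in these contrasts. For Junb in the DS at 1 hr, repeated minus acute was 0.08 (95% interval -0.38 to 0.54), challenge minus acute was -0.05 (-0.52 to 0.42) and challenge minus repeated was -0.13 (-0.61 to 0.34). Without naive replicate 1, repeated minus acute was 0.19 (-0.27 to 0.65) and challenge minus acute was 0.05 (-0.42 to 0.52). All of these intervals hold 0, and none shows that the experiences act alike. In the NAc, challenge minus repeated was -0.47 (-0.89 to -0.05, adjusted p = 0.832).

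At 2 hr, the fitted change of Junb was larger after repeated than after acute cocaine in 4 structures. The DS difference was 0.65, the Amy difference 0.52, the LCtx difference 0.50 and the NAc difference 0.46, each with an unadjusted p under 0.05 and an adjusted p of 0.519 or more. Challenge minus acute at 2 hr was 0.59 for the DS, 0.50 for the Amy and 0.41 for the NAc, with adjusted p of 0.616 or more. These comparisons share their acute mice, and none passed the test.

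Before any cocaine, the level of Junb differed between the naive samples of the structures. Apart from the Amy and LH, which shared a run, each of these sets of naive samples came from a run of its own, so in the levels a difference between structures and one between runs cannot be told apart. In naive mice the LCtx held 242, 203 and 173 CPM of Junb, the DS 161, 289, 186 and 174, the NAc 142, 181, 167 and 135, the Amy 129 and 105 and the LH 41.8 and 40.9. By group mean the order was LCtx, DS, NAc, Amy, LH. The neighbours LCtx and DS did not differ beyond their spread, 0.01 (SE 0.16, adjusted p = 0.986), nor did NAc and Amy, 0.42 (SE 0.19, adjusted p = 0.110), whereas DS stood above NAc, -0.43 (SE 0.15, adjusted p = 0.0363) for NAc minus DS, and Amy stood above LH, 1.49 (SE 0.25, adjusted p = 7.26e-07). With the mouse as a block, since structures share mice, the difference between NAc and Amy was called too (adjusted p = 0.0105).

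Of the 10 pairs of structures, 8 were called for Junb, 4 for Jun, 1 for Atf3 and 0 for Jund, Creb1, Crem and Maff. With the mouse as a block, further calls were Creb1 DS minus Amy (-0.42, adjusted p = 0.0368), Crem LCtx minus LH (0.64, adjusted p = 0.0255), Jun LCtx minus NAc (0.43, adjusted p = 0.0379) and Atf3 DS minus LH (2.13, adjusted p = 0.0420). Without naive mouse 1, Atf3 DS minus LH was 0.36 (adjusted p = 0.872, no block). Naive DS replicates 3 and 4 held 42.3 and 33.5 CPM of Creb1 in the run used here but 73.2 and 49.9 CPM in the shared run, so the Creb1 value is smaller than the difference between those runs. Depending on the pair, 16.6% to 42.1% of all genes were called, so called differences were common. By group mean Jun was lowest in the DS, at 39.0, 26.4, 22.4 and 20.97 CPM against 38.0, 21.9, 40.8 and 45.1 in the NAc, from which it was not called different, 53.4, 44.98 and 39.8 in the LCtx, 52.2 and 47.6 in the Amy and 52.2 and 51.6 in the LH. The differences were -0.87 (SE 0.22, adjusted p = 0.000617) for DS minus LH, -0.81 (SE 0.22, adjusted p = 0.00225) for DS minus Amy and 0.73 (SE 0.20, adjusted p = 0.00198) for LCtx minus DS. NAc minus LH was called for Jun, -0.52 (SE 0.21, adjusted p = 0.0410), but not with the mouse as a block (adjusted p = 0.0702). The Atf3 call, DS minus Amy, 3.25 (SE 1.08, adjusted p = 0.0122), rested on naive mouse 1 and was 0.59 (adjusted p = 0.806) without it.

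**Figure D5:**
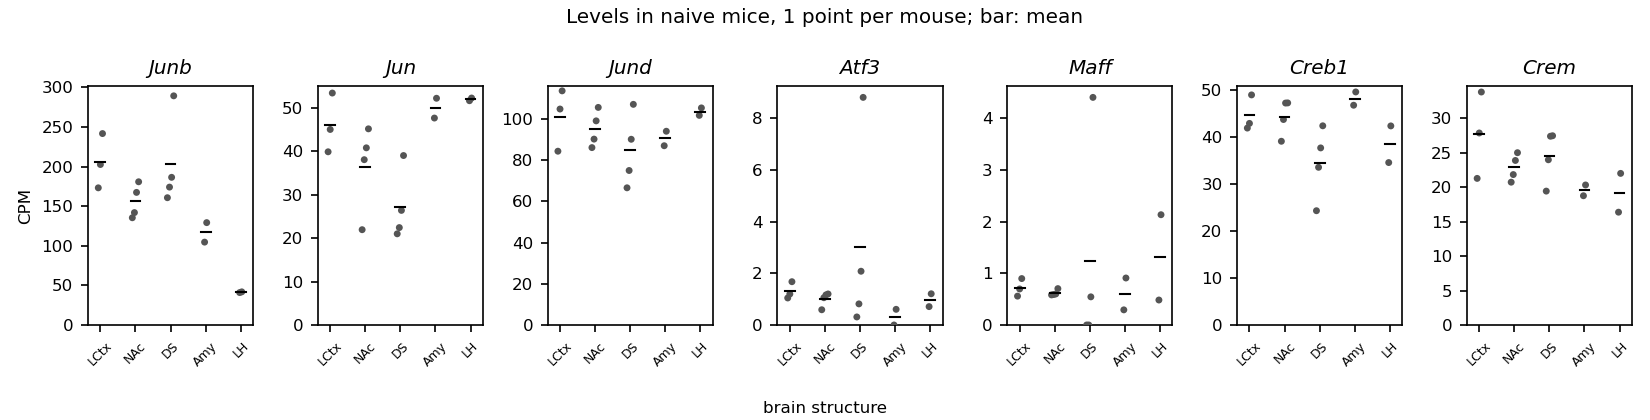
CPM of the 7 genes in naive mice of the 5 structures, 1 point per mouse, with bars at the means; each panel has its own axis. Junb is lowest in the lateral hypothalamus, Jun has its lowest mean in the dorsal striatum, and a single dorsal striatum mouse stands out in Atf3 and Maff.

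The rise of Junb in the DS was compared with that in the other structures as a difference of changes, the 1 hr change in the DS minus that in another structure, over 12 pairs of structure and experience. All 12 were above 0. After acute cocaine they were 1.25 (SE 0.24, adjusted p = 0.000359) against the LCtx, 1.33 (SE 0.21, adjusted p = 4.47e-05) against the NAc, 1.11 (SE 0.26, adjusted p = 0.0395) against the Amy and 1.47 (SE 0.30, adjusted p = 0.00463) against the LH. In these 4 contrasts 0.965%, 0.238%, 0.105% and 0.140% of all genes were called. After challenge, 1.48 (SE 0.24, adjusted p = 8.3e-05) against the NAc and 1.14 (SE 0.23, adjusted p = 0.00704) against the Amy were called, where 0.0140% and 0.0350% of all genes were, and those against the LCtx, 1.00 (SE 0.24, adjusted p = 0.113), and the LH, 1.48 (SE 0.32, adjusted p = 0.0561), were not. After repeated cocaine the 4 differences lay between 1.01 and 1.34, and none was called.

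Several structures came from the same mouse, and with the mouse as a block all 12 differences were called, at 0.93 to 1.54 with adjusted p between 5.36e-10 and 0.00741. The fit with the block kept the dispersion trend of the fit without it. The share of all genes called with the block is not given here, so nothing is read from the count of 12. The challenge difference against the LH rests on 1 abstinent LH mouse, which was assumed to vary like the other groups. The smallest and least firm of the 6 calls without the block was that against the Amy after acute cocaine, which was lost with DESeq2 (adjusted p = 0.0914) and with summed libraries. That against the LH after acute cocaine was lost without mouse 1 of the acute cohort. For Jun, all 12 differences were above 0 as well, between 0.13 and 1.10, with none called. None of the other members had a called difference, 6 of 84 tests in all being called with edgeR. DESeq2 called 6 as well, but not the same ones. It lost Junb against the Amy after acute cocaine and gained Junb against the LH after repeated cocaine (1.33, adjusted p = 0.0412).

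At 0 hr, none of the 7 genes differed by the rule for calls between naive mice and mice with repeated cocaine or abstinence, in 45 tests of the 5 members that passed the filter on low counts (Atf3 and Maff did not). Of these 8 had an unadjusted p under 0.05, and DESeq2 called 0. Of all genes, 0.0817% in repeated NAc mice to 8.36% in abstinent LCtx mice were called. The value nearest to the threshold was Junb in the LCtx of repeated mice, at -0.41 (SE 0.12, adjusted p = 0.0813), where 1.39% of all genes were called. Jund in the same mice was at -0.40 (SE 0.15, adjusted p = 0.287). In the DS, where all libraries of this comparison came from 1 run, Junb was at -0.19 (SE 0.17) in repeated and 0.40 (SE 0.17, adjusted p = 0.237) in abstinent mice.

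Among 19 partners of the 7 genes in AP-1 and other bZIP pairs, 17 could be tested in the DS, and the called ones rose. At 1 hr of acute cocaine 4 of 17 were called, Fosl2 at 2.60, Fosb at 2.30, Fos at 2.11 and Atf4. Repeated cocaine gave 3 calls, Fos at 3.06, Fosb at 2.09 and Fosl2 at 1.86, and challenge gave 4, Fos at 2.25, Fosb at 2.03, Fosl2 at 1.99 and Atf4. Fos, Fosb and Fosl2 encode Fos-family proteins that pair with Jun proteins, and Atf4 is a stress-response factor that is named here after its values were seen. The median change over the 17 was 0.03, 0.05 and 0.01, beside 0.26, 0.52 and 0.47 over the 6 members tested and -0.01, -0.01 and 0.00 over all genes. Without naive replicate 1 the acute values of the 6 members were 2.11 (Junb), 1.21 (Jun), 0.80 (Atf3), 0.39 (Crem), 0.29 (Jund) and -0.02 (Creb1). The acute median of 0.26 thus depends on that library, and the 3 medians are not compared here.

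Fosb and Fosl2 were still called at 2 hr in all 3 experiences of the DS, when no member was, and Fosb at 4 hr after challenge. In the other structures the partners called at any time were Fos, Fosb and Fosl2 alone. Over all structures, experiences and times, 31 of 765 tests of the partners were called, each an increase, where 0% to 1.07% of all genes were called per contrast. With DESeq2 27 of 684 were. Of 12 CREB relatives and coactivators (among them Atf1, Crebbp, Ep300 and Crtc1) 0 were called with edgeR in any structure at any time. Of their 540 tests 32 had an unadjusted p under 0.05, and DESeq2 called 0 of 484. At the share of all genes called, few calls or none would be found in a list of this size, so nothing is read from this count. The median changes in the DS at 1 hr were between -0.03 and 0.03 for these CREB relatives.

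The genes whose changes were most like those of Junb over the 45 combinations of structure, experience and time, among 12290 genes tested in all structures, were Arc (Pearson r = 0.92), Nr4a1 (0.90), Fos (0.87), Btg2 (0.84) and Dusp1 (0.82). For Jun they were Arc (0.75), Gm13889 (0.75), Egr4 (0.72), Fosl2 (0.71) and Btg2 (0.70), and Jun and Junb themselves correlated at 0.715. Arc encodes a synaptic protein of immediate early genes, and Nr4a1, Fos and Egr4 encode transcription factors of that class. The genes most like Crem were others, Ina (0.82), Arf4 (0.75), Abl2 (0.70), Dusp14 (0.69) and Ago2 (0.69). For Jund the highest r was 0.74 (Ptprn) and for Creb1 0.66 (Cnot6). The 45 changes share 0 hr mice and libraries, so these values only describe likeness.

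The precision of single values can be read from the 28 samples sequenced in a pair of runs. The median absolute log2 difference between the 2 libraries of a sample, with a pseudocount of 1 CPM, was 0.21 for Jun, 0.26 for Junb, 0.30 for Jund, 0.29 for Creb1 and 0.25 for Crem. It was 0.56 for Atf3 and 0.62 for Maff, the genes with the fewest counts. The largest differences were 2.26 for Atf3 and 2.97 for Maff, and 0.57 for Junb.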

How the data were processed

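RNA was measured by 3′-RNA-seq in 194 libraries of 5 brain structures. The authors deposited a table of raw read counts per gene, not normalized, made with STAR, HTSeq and the build GRCm38 (per the submitters' processing notes, versions and strand setting not given). From these counts CPM and all tests were computed anew. Induction was fitted per structure in edgeR 4.0.16 (R 4.3.3; filterByExpr, TMM scaling, quasi-likelihood test, Benjamini-Hochberg adjustment over all genes tested), on 143 libraries that the study marked, 1 per mouse, with LH libraries of a mouse summed (23 mice). Groups held 1 to 5 mice, and a lone mouse was assumed to vary like the other groups. Levels and differences between structures were fitted jointly over 14297 genes, and 0 hr differences per structure on 30 samples (33 libraries, summed per mouse), namely those that the study marked for this comparison and 3 further abstinent NAc and Amy samples. DESeq2 1.42.0 was an alternative, with other scaling, filters, libraries, covariates and left-out mice. The tests were checked on simulated data. A change was called at an adjusted p under 0.05 and a fold over 1.2, and differences between experiences or structures at the adjusted p alone.

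The 7 genes and all lists were chosen with earlier results of these data known. Genes named with changes are the 7 members, at most 3 called genes per pathway list with the largest change in the DS at 1 hr, and 5 genes per member by likeness, and other list genes and markers are named without them. Same-numbered replicates deviated together in each pair only in the repeated DS groups (correlations 0.117 to 0.201 over 4 pairs), where the numbers follow 2 cohorts. The labels number mice as separate animals. Intervals of count ratios cover counting error only. Promoters came from RefSeq. The result of 1 further gene list is not reported here.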

Additional observations from a re-analysis of the deposited data

Results flagged for a closer look

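In groups of 4 or 5 mice, 11 of 147 sets of values (7.48%) held a mouse set apart from the others by Dixon's criterion, where chance gives about 1 in 20. Junb stood at 1097 CPM in DS acute 1 hr replicate 4 and at 320.1 CPM in LCtx challenge 2 hr replicate 3. Jun was lowest in Amy challenge 1 hr replicate 2, at 65.3 CPM. Jund stood at 64.6 CPM in DS repeated 0 hr replicate 4 and at 77.1 CPM in DS repeated 1 hr replicate 4. Atf3 stood at 3.79 CPM in the last of these mice and at 2.77 CPM in DS repeated 2 hr replicate 1. Creb1 was lowest in DS repeated 2 hr replicate 2, at 41.3 CPM, and Crem stood at 38.0 CPM in Amy challenge 1 hr replicate 4. Maff stood at 4.41 CPM in DS naive replicate 1 and at 0.704 CPM in NAc naive replicate 1, but all 4 naive NAc mice had 2 Maff counts, so the latter mouse differs in its library total alone.

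The 1 hr change of Junb differed between structures by the test of the difference itself in 6 cases. After acute cocaine the DS exceeded the LCtx by 1.25, the NAc by 1.33, the Amy by 1.11 and the LH by 1.47 on the log2 scale. After challenge it exceeded the NAc by 1.48 and the Amy by 1.14.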

How the results depend on the processing

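Of 56 called values, 44 were called under every alternative and 36 in every refit without 1 mouse. Calls of members at single times were 5 in the DS (9 without a filter on low counts, 3 in the shared run) and 2 in the LH (1 with DESeq2). Without a filter there were also 6 in Amy and 4 in LCtx in place of 5 and 3, Junb after challenge at 4 hr and after repeated cocaine at 2 hr. Without 1 mouse the calls ranged 4 to 6 in DS, 3 to 5 in Amy, 1 to 2 in LH, 2 to 4 in NAc and 3 to 3 in LCtx. Over time the LH gave 1 call with DESeq2 in place of 2, and the ranges were 4 to 7 in DS, 1 to 2 in LH, 3 to 3 in Amy and LCtx, and 4 to 4 in NAc. Calls over time were gained for Crem in acute DS (cohort as a covariate, no filter, 2-step selection) and challenge DS (2-step selection), Atf3 in acute NAc (2-step selection), Jun in challenge NAc (no filter, adjusted p = 0.00403) and Junb in challenge LH (no filter, adjusted p = 0.0418). Without a filter the test over time called 301 of 17464 genes in challenge NAc and 571 of 17899 in acute DS. With the filter and RLE scaling it called 12 of 12966 and 346 of 12918. Differences between experiences gave 1 call in the DS without a filter, Atf3 for challenge minus acute, and 0 to 0 without 1 mouse. Differences between structures rose from 6 calls to 10 with only 0 and 1 hr groups (added after the data were seen), 12 with the mouse as a block and 13 without a filter, with 7 to 12 without 1 mouse. Levels gave 13 calls, and 8 to 19 without 1 mouse. These refits without 1 mouse used only 0 and 1 hr groups and kept the dispersion trend of the full fit, so they compare with the 10 calls (structures) and 13 calls (levels) of that form of fit. At 0 hr there were 0 calls, but 2 in Amy, 3 in DS, 1 in LCtx and 3 in NAc with all time points (and 2 in abstinent LH mice, Crem and Jund, which have no test at 0 hr), 1 in DS with every 0 hr mouse and 1 in LCtx without a filter, with 0 to 1 in LCtx and 0 to 0 elsewhere without 1 mouse. Jund in repeated DS mice turned from 0.14 to -0.58 with every 0 hr mouse, which adds mice of other runs. The causes were not tested. Outside the repeated DS groups, same-numbered mice correlated at -0.0816 to 0.129. With the replicate number as a block, the call of Junb in the NAc at 1 hr of challenge was lost (adjusted p = 0.1001) and Atf3 in the DS at 1 hr of challenge was called (adjusted p = 0.0472). Few counts limit Atf3 and Maff.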
